A study of Mus musculus with 8 samples.

Results

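Ribosomal protein genes were examined in ChIP-seq (chromatin immunoprecipitation and sequencing) peak lists of HA-tagged EHMT2, a histone methyltransferase that places H3K9me2, in mouse embryonic stem cells (mESCs). Members were the protein-coding genes of the GENCODE annotation of mm10 whose symbol is Rpl or Rps followed by a number, together with Rplp0, Rplp1, Rplp2 and Rpsa. This gave 77 genes of 21938 protein-coding genes, 46 for the large (Rpl) and 31 for the small (Rps) ribosomal subunit. The choice used the symbols alone and no measured value. A member was said to have a peak in a list when the summit of at least 1 peak, the position of highest signal, lay within 1 kb of any annotated transcript start of the gene.

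The cells were EHMT2-dTAG-mcherry ESCs of a BL6/129 hybrid background, grown in serum and LIF. In the cells of every group, controls included, the endogenous EHMT2 carried a degron, an HA tag and an mCherry reporter, and all were collected after 24 h of treatment with DMSO or with the degrader dTAG, which removes tagged EHMT2. There were 4 peak lists. The HA antibody C29F4 gave 1 list from DMSO-treated cells, called on 2 merged ChIP samples that the methods describe as separate clones. The HA antibody ab9110, used in a separate experiment on another sequencer, gave 1 ChIP list from DMSO-treated cells, 1 ChIP list from dTAG-treated cells and 1 list from input (chromatin without pulldown) of dTAG-treated cells. The tagged lines are single picked clones grown on feeder fibroblasts, according to the methods. HA peaks do not measure RNA, so the cell type could not be checked against its marker genes. How much HA-tagged protein remained after dTAG is not measured by these lists. The paper reports near complete loss of EHMT2 protein by Western blot after dTAG treatment of this length. The paper also reports that depletion significantly lowered the HA ChIP signal at the peaks found in cells with EHMT2. Whether peaks of the dTAG list mark EHMT2 was not tested.

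Ribosomal proteins are the protein components of the cytoplasmic ribosome, which builds all cellular proteins. Their genes are housekeeping genes, transcribed at very high levels from short, compact units in nearly every cell, and the mouse genome also holds many processed pseudogene copies of them. Transcription of most of these genes starts at a C within a run of pyrimidines, the terminal oligopyrimidine (TOP) tract, through which translation of their mRNAs is regulated by growth signals.

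The members had short gene bodies and promoters of moderate GC content. Their median length was 3289 bp, against 17425 bp over all protein-coding genes. The 1 kb around their annotated start held a median of 56.7% G+C (45.6% to 64.2%), against 54.8% over all protein-coding genes. A snoRNA gene, encoding one of the small RNAs that guide modification of ribosomal RNA, lay within 30 of the members. Of the 77 members, 18 (23.4%, against 14.6% of all protein-coding genes) had the start of another protein-coding gene within 1 kb, as did Rps28, whose start is 10 bp from that of Ndufa7 on the other strand. A peak at such a start cannot be assigned to 1 of the 2 genes.

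Promoter sequences were searched for short motifs, and no motif was common to all members searched. The RefSeq promoter table (assembly GRCm38.p6) held 57 of the 77 members, each with 250 bases before and 50 bases after the start. A pyrimidine tract, defined as C followed by at least 4 C or T with the C within 5 bases of the RefSeq start, was present in 27 members (47.4%), against 21.8% of the protein-coding genes in the table. The stretches below run from 15 bases before to 15 bases after the RefSeq start, 5′ to 3′ on the strand of the gene, with the tract in capitals where one was found. The first 6 are members with a peak after dTAG, and the last 2 are well-known members without a tract by this definition.
Rplp2 (chr7:141447636-141447665, + strand): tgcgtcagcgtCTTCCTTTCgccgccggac
Rpl18 (chr7:45718056-45718085, + strand): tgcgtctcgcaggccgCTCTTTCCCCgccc
Rpl13a (chr7:45128731-45128760, - strand): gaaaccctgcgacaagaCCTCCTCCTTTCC
Rpl27a (chr7:109519180-109519209, + strand): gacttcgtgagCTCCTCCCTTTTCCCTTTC
Rps6 (chr4:86857353-86857382, - strand): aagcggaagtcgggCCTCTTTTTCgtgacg
Rps18 (chr17:33955651-33955680, - strand): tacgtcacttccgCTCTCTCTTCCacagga
Rplp0 (chr5:115559452-115559481, + strand): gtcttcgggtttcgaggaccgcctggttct
Rpsa (chr9:120127751-120127780, + strand): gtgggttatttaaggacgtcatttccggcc
Rpsa had a peak in both ab9110 ChIP lists and Rplp0 in none of the lists. A RefSeq start is not always the most used one, so tracts further from it were not counted.

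The letters of the binding motif core shared by ETS factors, CCGGAAG, were found on either strand in 24 of the 57 members (42.1%), against 13.4% of the protein-coding genes in the table. The YY1 core AAGATGG was found in 9 members (15.8% against 7.26%), the GC box GGGCGG in 35 (61.4% against 51.0%), the E-box CACGTG in 6 (10.5% against 9.18%) and the TATA box TATAAA in 6 (10.5% against 14.3%). The ETS and YY1 cores can overlap by their shared AAG, and several motifs can occur in 1 promoter. The ETS core was in 19 of 45 members with a dTAG peak (42.2%) and in 5 of 12 without. For the pyrimidine tract these numbers were 20 of 45 and 7 of 12, and for the GC box 25 of 45 and 10 of 12. Stretches from 80 bases before the start up to the start are shown for 4 members with the ETS core, which is in capitals (CTTCCGG is the same core read on the other strand). Rps18 was called in both ab9110 ChIP lists, Rps7 and Rpl37 after dTAG alone, and Rps21 in neither.
Rps18 (chr17:33955666-33955745, - strand): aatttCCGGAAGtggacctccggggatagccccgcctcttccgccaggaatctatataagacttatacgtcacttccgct
Rps7 (chr12:28635954-28636033, - strand): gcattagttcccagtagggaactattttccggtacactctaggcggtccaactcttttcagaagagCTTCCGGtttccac
Rpl37 (chr15:5116533-5116612, + strand): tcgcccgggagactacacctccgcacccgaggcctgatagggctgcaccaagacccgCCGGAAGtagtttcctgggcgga
Rps21 (chr2:180257299-180257378, + strand): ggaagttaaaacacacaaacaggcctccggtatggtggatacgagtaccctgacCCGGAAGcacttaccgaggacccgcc

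Most members had a peak in the list from dTAG-treated cells, in which the tagged protein was targeted for removal. Fewer had one in the DMSO list of the same antibody, and hardly any in the C29F4 and input lists. In the ab9110 dTAG list 62 of the 77 members had a peak (80.5%, exact 95% interval 69.9% to 88.7%), against 31.9% of all protein-coding genes. The ab9110 DMSO list held a peak at 40 members (51.9%, 40.3% to 63.5%), against 25.1% of all protein-coding genes. Of 6318 protein-coding genes with at least 60% G+C around the annotated start, 52.7% had a dTAG peak and 31.6% a DMSO peak. All protein-coding genes include genes of any expression level, and a background of expressed genes was not computed. With the C29F4 antibody 1 member had a peak (1.30%, 0.0329% to 7.02%), beside a background of 2.34%. No member had a peak in the input list, which allows a share of up to 3.90% by the limit of 3 counts (3 of 77) and up to 4.68% by the exact interval, and stands beside a background of 1.25%. The intervals cover counting error over genes only. With 1 list a condition there is no replicate check on any difference between lists, and no test was possible.

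**Figure D1:**
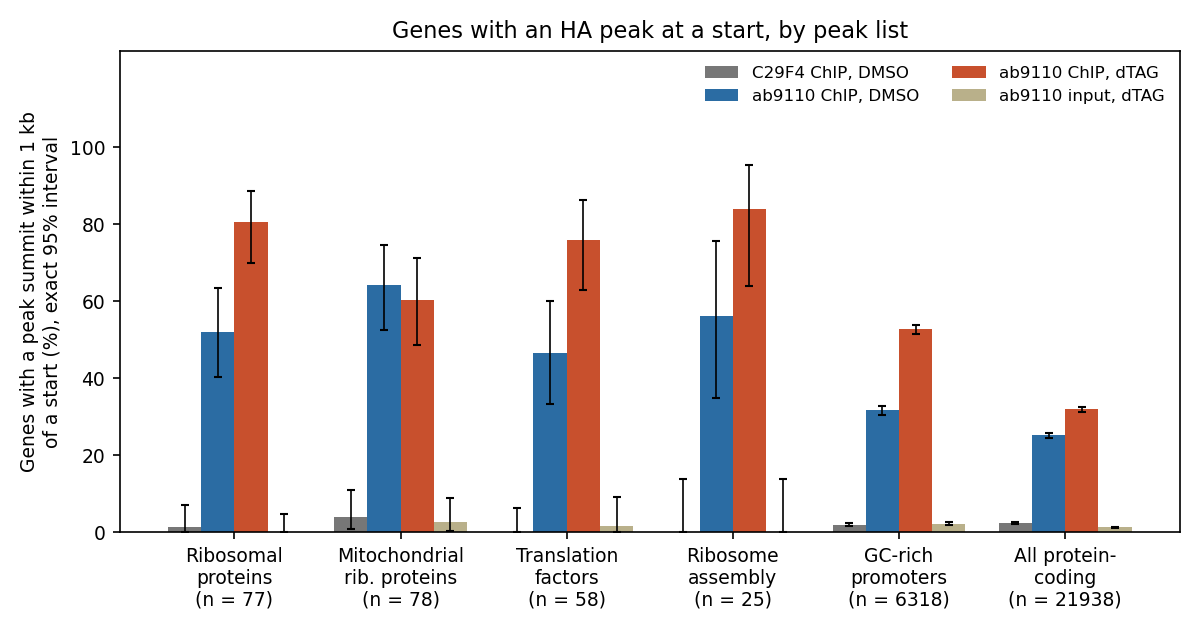
Percentage of genes (vertical axis) with a peak summit within 1 kb of a start, for 6 gene groups (horizontal axis, number of genes in parentheses) and the 4 peak lists (colours). Error bars are exact 95% binomial intervals over genes. Ribosomal protein genes reached 80.5% in the ab9110 dTAG list and 51.9% in the ab9110 DMSO list, and stood near 0 in the C29F4 and input lists.

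The shares called were close in the 2 subunits, with overlapping intervals and no test. A dTAG peak was found at 37 of 46 large-subunit genes (80.4%) and 25 of 31 small-subunit genes (80.6%), and a DMSO peak at 23 (50.0%) and 17 (54.8%). By class, 33 members (42.9%) were called in both ab9110 ChIP lists, against 16.7% of all protein-coding genes. A further 29 (37.7%) were called with dTAG alone, against 15.2%, and 7 (9.09%) with DMSO alone, against 8.38%. The remaining 8 (10.4%) were called in neither, against 59.7% of all protein-coding genes. The share called with DMSO alone was thus near the background. That class included Rpl14, Rpl15, Rpl22, Rpl31, Rps9 and Rps10, and the 8 called in neither were Rpl10, Rpl12, Rpl21, Rpl30, Rplp0, Rps3a1, Rps4x and Rps21. Of the 4 X-linked members, Rpl10 and Rps4x were in neither list, Rpl36a in the dTAG list alone and Rpl39 in both.

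The ab9110 libraries differed in depth. From the values of the peak caller, mean coverage was 2.11 fragments for ab9110 DMSO, 1.23 for ab9110 dTAG, 3.64 for C29F4 and 0.978 for the input. Reduced to the coverage of the dTAG library (58.2% of its own) and held to the lowest p-value of the dTAG list, the DMSO list would be expected to call 14.7 members (19.1%), against 62 in the dTAG list. Members not called in DMSO cannot be gained by this calculation, so it can only lower the 40. For all protein-coding genes the same calculation gave 2603 (11.9%), against 6996. The lists held 40816 ab9110 DMSO, 16324 ab9110 dTAG, 11010 C29F4 and 2050 input peaks in all.

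The strongest peaks after dTAG were at small-subunit genes. Strength is given as the fold of the deposited list, the fragment pileup at the summit over the local background, each plus 1. Rps29, a zinc-binding protein of the small-subunit head, had the highest fold among the members, 9.01 with a pileup of 28 fragments at a summit 221 bp upstream of the start, and no DMSO peak. It lay at percentile 99.4 among all dTAG peaks. Rps13 had a fold of 6.54 after dTAG and 2.45 in DMSO, and Rps16 a fold of 5.97 after dTAG with no DMSO peak. Rps15 had a fold of 5.68 after dTAG and 3.22 in DMSO, at summits 1056 bp apart, taking the stronger of its 2 DMSO peaks. All 4 of these genes were in the top decile of the dTAG list, which held 5 members.

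Rplp2, one of the acidic stalk proteins that recruit elongation factors to the ribosome, came next with a fold of 5.25 (26 fragments) and was called with dTAG alone. The dTAG fold was 5.18 at Rps28, 5.05 at Rpl7, 5.04 at Rpl18 and 4.98 at Rps14, and in DMSO the same genes had folds of 2.89, 2.47, 2.64 and 2.50. At Rpl18 the strongest peaks of the lists were at different starts, 2675 bp apart. The stalk scaffold Rplp0 had no peak in any list, and its partner Rplp1 had a fold of 3.38 after dTAG and 2.80 in DMSO. The 3 stalk genes therefore fell into 3 different classes.

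**Figure D2:**
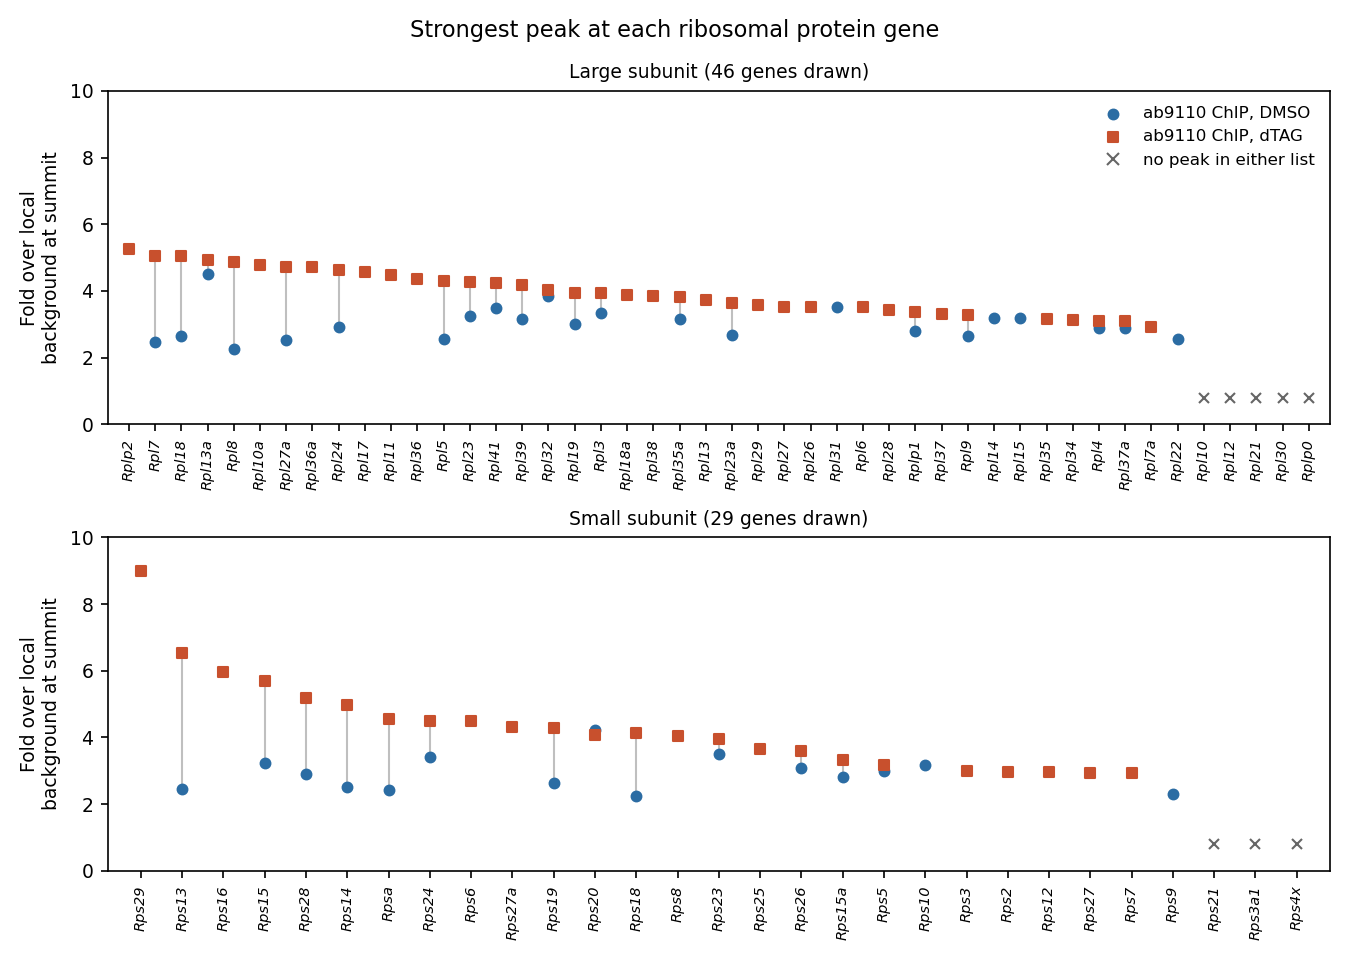
Fold over local background at the summit (vertical axis) of the strongest peak at each of 75 ribosomal protein genes (horizontal axis, by subunit and ordered by the higher fold), for the ab9110 DMSO list (circles) and dTAG list (squares). Lines join the values of 1 gene, and crosses mark genes with no peak in either list. The highest values, 9.01 at Rps29 and 6.54 at Rps13 among the genes drawn, are small-subunit genes after dTAG.

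In the DMSO list the order was different. Rpl13a, a large-subunit protein also known for a role in translational control outside the ribosome, led with a fold of 4.50 and a pileup of 53 fragments at a summit 333 bp upstream of the start, and its dTAG fold was 4.93 with 20 fragments. Rps20 followed with 4.22 in DMSO and 4.08 after dTAG, and it was the only member called in both lists whose fold was not higher after dTAG. Rpl32 had 3.85 in DMSO and 4.02 after dTAG. Among further members of the 10 strongest in DMSO, the fold was 3.51 at Rpl31, 3.50 at both Rpl41 and Rps23, 3.42 at Rps24 and 3.32 at Rpl3, which lies close to the peptidyl transferase centre. Rpl23 had a DMSO fold of 3.24. Rpl31 was called with DMSO alone, and the other 9 had a dTAG peak too.

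By fold, peaks in the DMSO list were weak for that list. The 40 members had a median fold of 2.90 (2.24 to 4.50), a median percentile of 15.3 among all DMSO peaks, and 0 in the top decile. All protein-coding genes called in DMSO had a median fold of 3.09, with 5.44% in the top decile. After dTAG the 62 members had a median fold of 4.03 (2.93 to 9.01) and a median percentile of 63.6, close to the 4.01 and 61.7 of all protein-coding genes called. Their share in the top decile of fold was 8.06% (5 of 62), below the 16.9% of all protein-coding genes called. By fold, members were thus frequent in the dTAG list without being among its strongest peaks as a group. Other measures went the other way after dTAG. The median −log10 of the q-value was 4.00 at the members against 3.49, and the median summit pileup was 13.9 times the mean coverage against 13.0. In DMSO these medians were 2.39 against 2.92 and 9.97 against 9.49. The member peaks after dTAG were 904 bp wide at the median, against 742 bp for all protein-coding genes called. Local background at the called peaks was above the mean coverage for members and other genes alike. After dTAG its median was 3.07 times the mean coverage at the members and 2.60 times over all protein-coding genes called, and in DMSO 2.79 and 2.73 times.

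Summits of the called peaks lay close to transcript starts. Only summits within 1 kb of a start could enter, and the nearest of several starts was used. Members have more starts than other genes (median 6 against 3), so the shares within 250 bp are not compared like for like. After dTAG the median summit was 9.5 bp downstream of the nearest start, 32 of 62 lay downstream and 59 (95.2%) within 250 bp, against 79.6% of all protein-coding genes called. In DMSO the median was -42.5 bp (upstream), 14 of 40 lay downstream and 34 (85.0%) within 250 bp, against 71.1%. Both distributions overlapped over most of their range. With the 5′-most start of each gene alone, the median was 71 bp after dTAG and -18 bp in DMSO.

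**Figure D3:**
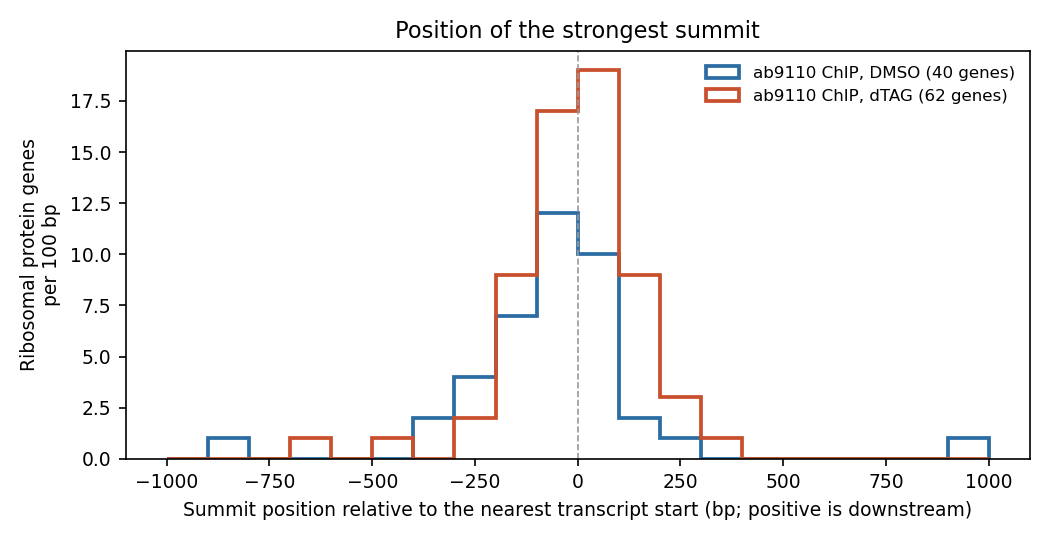
Number of ribosomal protein genes per 100 bp (vertical axis) by position of the strongest summit relative to the nearest transcript start (horizontal axis in bp, positive downstream) in the ab9110 DMSO and dTAG lists. Summits of both lists gather around the start, with a median of -42.5 bp in DMSO and 9.5 bp after dTAG.

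The 33 members called in both lists allow the signal to be compared gene by gene. Each summit pileup was divided by the mean coverage of its library, which removes the difference in depth. The ratio of dTAG to DMSO had a median of 1.54 (0.648 to 2.58) and was above 1 at 30 of the 33. Over the 3672 protein-coding genes called in both lists the median was 1.38, with 85.5% above 1, so a ratio above 1 was common among all genes called in both. Rps15 had the highest ratio (2.58, between peaks that do not overlap). It had 2 DMSO peaks, and only the stronger, 957 bp downstream of the start, entered the ratio. The other lay within 500 bp of a start. The 3 members below 1 were Rpl13a (0.648, from 25.2 to 16.3 times the mean coverage), Rpl32 (0.900) and Rpl9 (0.981). The 2 peaks overlapped at 29 of the 33 members (87.9%), where the median ratio was 1.52. Over all protein-coding genes called in both lists they overlapped at 87.2%, close to the members, with a median ratio of 1.37 there. The members whose peaks did not overlap were Rpl18, Rps15, Rps24 and Rps26. A gene had to be called in both lists to enter, and the shallower dTAG library needed a higher scaled pileup to be called, so these ratios describe the members called and carry no test.

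**Figure D4:**
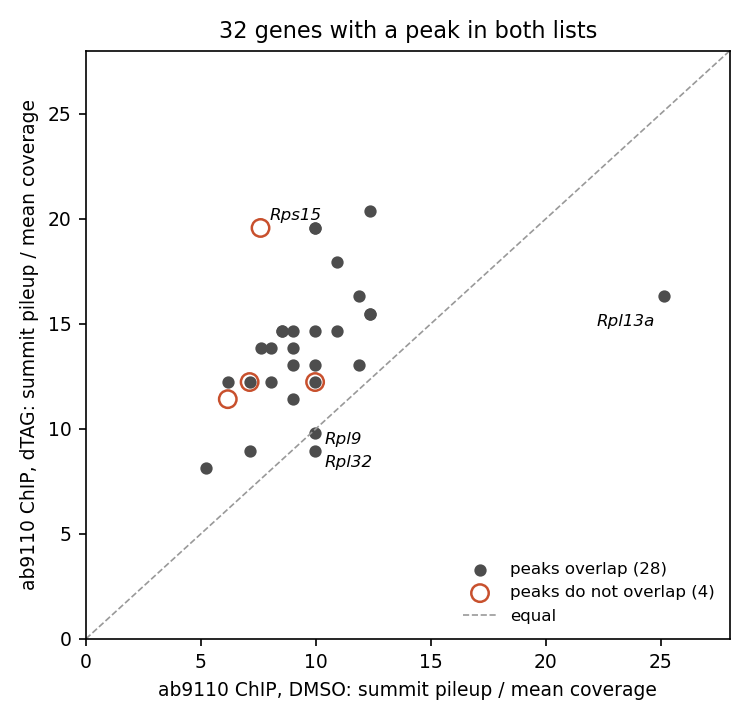
Summit pileup divided by the mean coverage of the library in the ab9110 DMSO list (horizontal axis) and in the ab9110 dTAG list (vertical axis) for 32 of the 33 ribosomal protein genes called in both. Filled points mark all genes whose peaks overlap, open rings those whose peaks do not, and the dashed line marks equal values. All genes drawn but Rpl13a, Rpl32 and Rpl9 lie above the line.

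Among the 29 members called with dTAG alone, Rps29, Rps16 and Rplp2 were followed by Rpl10a (fold 4.76), Rpl36a (4.72), Rpl17 (4.56), Rps6 (4.51), Rpl11 (4.46), Rpl36 (4.35) and Rps27a (4.30). Rps6 is the ribosomal protein phosphorylated by S6 kinase, and Rps27a is made as a fusion with ubiquitin. Rpl11, which binds the ubiquitin ligase MDM2 when ribosome assembly is disturbed, thus differed in class from Rpl5, which acts with it and had folds of 2.56 in DMSO and 4.30 after dTAG. The dTAG summit pileups of the 29 were 8.15 to 28.5 times the mean coverage. At the median background of the member peaks in DMSO (5.88 fragments), a DMSO call needed 16 fragments, or 7.59 times the mean coverage. All 29 exceeded that multiple in the dTAG library, where a call itself needed 10.6 times at the median background of member peaks. That outcome was thus largely set by their being called, and nothing is concluded from it. The DMSO background at these 29 genes themselves is not in the list.

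The 7 members called with DMSO alone had folds of 2.31 to 3.51, with 3.51 at Rpl31, 3.20 at Rpl14, 3.19 at Rpl15, 3.16 at Rps10, 2.55 at Rpl22 and 2.31 at Rps9. The summit of the stronger of 2 DMSO peaks at Rpl14 was 836 bp upstream of the start, and the summits of the other 6 members lay within 250 bp. At the median background of the member peaks after dTAG, a dTAG summit needed 13 fragments, or 10.6 times the mean coverage, and 5 of the 7 DMSO summits were below that multiple. Reduced to dTAG coverage as above, the DMSO list would be expected to keep 2.19 of the 7. The dTAG background at these genes themselves is not in the list, and the part of depth in these calls was not tested.

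Rps26 was the member with a C29F4 peak (chr10:128626935-128627256, fold 4.53, 48 fragments), with its summit 357 bp upstream of the start. The ab9110 DMSO peak overlapped it (fold 3.09, summit 316 bp upstream), whereas the dTAG peak (fold 3.58, summit 94 bp downstream) did not overlap the DMSO peak, with summits 733 bp apart. Rpsa, also known as the laminin receptor, had folds of 2.43 in DMSO and 4.55 after dTAG. Rps19, the gene most often mutated in Diamond-Blackfan anaemia, an inherited failure of red cell production caused by ribosomal protein mutations, had 2.63 in DMSO and 4.29 after dTAG. Of 18 members whose human counterparts are linked to this disease, 11 had a DMSO peak (61.1%) and 14 a dTAG peak (77.8%), beside 51.9% and 80.5% of all members and 25.1% and 31.9% of all protein-coding genes. None of the 18 was called in neither list (0 of 18, exact upper limit 18.5%), beside 10.4% of all members. The 4 with a DMSO peak alone (22.2%, 6.41% to 47.6%) included Rpl15, Rpl31 and Rps10. That interval holds the 9.09% of all members and the 8.38% of all protein-coding genes.

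Promoter GC content is known to affect chromatin recovery and sequencing, and over all protein-coding genes the share with a dTAG peak rose with it. Among protein-coding promoters under 50% G+C, 9.32% had a dTAG peak, and among those with at least 65%, 56.9%. The shares of the members lay close together across the ranges: 6 of 8 had a dTAG peak under 50% G+C (75%), 12 of 15 at 50% to 55% (80%), 34 of 41 at 55% to 60% (82.9%) and 10 of 13 at 60% to 65% (76.9%). In each of these ranges the share of members was above that of all protein-coding genes, which was 28.4%, 41.4% and 49.1% in the 3 higher ranges. For DMSO peaks the members had 62.5%, 60%, 46.3% and 53.8% in the 4 ranges, beside 11.6%, 29.6%, 33.3% and 32.9% of all protein-coding genes. The DMSO share of all protein-coding genes thus changed little above 50% G+C, with 30.1% at 65% or more. The interval of the members held the value of all genes in the 55% to 60% and 60% to 65% ranges for DMSO and in the 60% to 65% range for dTAG.

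**Figure D5:**
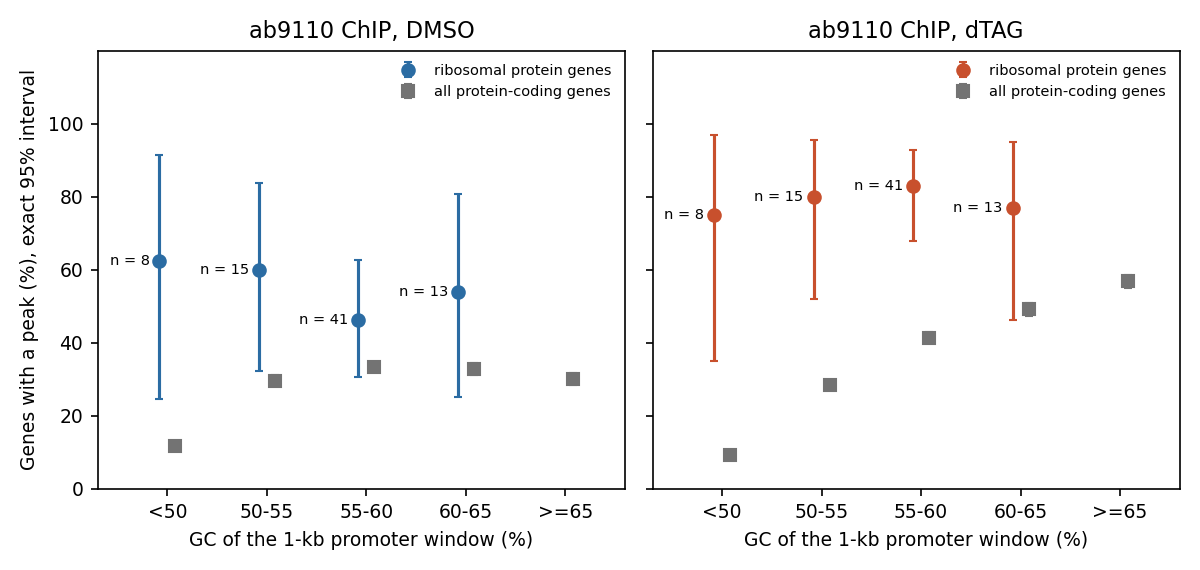
Percentage of genes with a peak (vertical axis) by G+C content of the 1 kb around the annotated start (horizontal axis), for ribosomal protein genes (circles, with their number) and all protein-coding genes (squares), in the ab9110 DMSO and dTAG lists. Error bars are exact 95% intervals over genes. With dTAG the share of all genes climbs from 9.32% to 56.9% with G+C, whereas members stand at 75% to 82.9% in each range that holds members.

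Members have more annotated starts than other genes (median 6 against 3), and each start adds sequence in which a summit counts. Among genes with 1 to 4 starts, 22 of 26 members (84.6%) had a dTAG peak and 14 (53.8%) a DMSO peak, against 21.5% and 17.5% of 14107 protein-coding genes. With 5 or more starts the members had 40 of 51 (78.4%) and 26 (51.0%), against 50.5% and 38.9% of 7831 genes. The 30 members that hold a snoRNA gene had 25 dTAG peaks (83.3%) and 13 DMSO peaks (43.3%), and the other 47 had 37 (78.7%) and 27 (57.4%). Leaving out the 18 members near another coding start, 47 of 59 (79.7%) had a dTAG peak and 29 (49.2%) a DMSO peak.

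For DMSO peaks, dTAG peaks and dTAG alone, the shares of translation factor and ribosome assembly genes lay within the intervals of the members. Translation factor genes lay outside them for DMSO alone (3.45%, against 3.73% to 17.8%) and for neither list (20.7%, against 4.59% to 19.4%). The interval of the mitochondrial list did not overlap that of the members in the class called with dTAG alone. No test was made. Of 78 mitochondrial ribosomal protein genes, which encode the separate ribosome of mitochondria, 50 had a DMSO peak (64.1%, 52.4% to 74.7%) and 47 a dTAG peak (60.3%, 48.5% to 71.2%). Their class called with dTAG alone held 15.4% (8.21% to 25.3%), against 37.7% (26.9% to 49.4%) of the cytoplasmic ribosomal protein genes. Translation factor genes had 27 of 58 with a peak in DMSO (46.6%) and 44 after dTAG (75.9%), and 32.8% were called with dTAG alone. Ribosome assembly genes had 14 of 25 in DMSO (56.0%) and 21 after dTAG (84.0%), and 32.0% were called with dTAG alone. The highest dTAG folds in these lists were 9.31 at Mrpl45, 7.81 at Wdr12, a factor of large-subunit assembly, and 7.32 at Eif4h, a helper of the initiation helicase.

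Fau encodes a ribosomal protein fused to a ubiquitin-like protein, and its symbol falls outside the rule. It was called in both ab9110 ChIP lists, with folds of 4.89 in DMSO and 6.82 after dTAG. Among 7 paralogs outside the symbol rule, 3 had a DMSO peak (42.9%, 9.90% to 81.6%, beside 25.1% of all protein-coding genes) and 2 a dTAG peak (28.6%, 3.67% to 70.96%, beside 31.9%), both with wide intervals that hold the background. A C29F4 peak was found at 2 (28.6%, 3.67% to 70.96%, beside 2.34%), Rpl10l (fold 4.37) and Rpl39l (4.53), which were named after their values were seen. Rpl10l and Rpl39l are expressed mainly in male germ cells. Neither had a dTAG peak, and Rpl10l had a DMSO peak (fold 2.76).

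Reads that fit several places were assigned to 1 of them, and processed pseudogenes share most of the mature sequence of their parent gene. A summit lay inside 9 of 301 annotated ribosomal protein pseudogenes in DMSO (2.99%), 2 after dTAG (0.664%), 1 in C29F4 and 0 in the input. The share over other pseudogenes was not computed. The part of such copies in the member peaks was not tested. No peak was shared between 2 members. Peaks inside the gene body beyond 1 kb of a start were found at 5 members in DMSO (Rpl3, Rpl12, Rpl15, Rpl24 and Rps15a) and 4 after dTAG (Rpl12, Rpl15, Rpl27a and Rps15a). Rpl12, which had no peak at its start, thus had at least 1 in its body in both of these lists. The share of all protein-coding genes with such a peak was not computed, so the counts of 5 and 4 have no background beside them.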

How the data were processed

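The data are MACS2 peak lists deposited by the authors for 4 of the conditions of an 8-sample series. The labels and methods state trimming, alignment to mm10 with STAR 2.7.10 with a multimapping read kept at 1 location, removal of duplicates with Picard 2.26.0 and of high-signal regions, and peak calling with MACS2 2.2.6 at q under 0.05. Whether a control entered the calls is not stated. Each ab9110 list comes from 1 library, whereas the C29F4 replicates were merged before calling. C29F4 input, ab9110 DMSO input and separate C29F4 replicate lists were not analysed here. The deposited fold is a ratio of pileup to background at the summit, and the deposited significance at that summit is given as −log10 of p and of q. The deposited integer score is 10 times −log10 q in the C29F4 list and 10 times −log10 p in the others, and was not used. Settings of the peak caller may thus have differed between the C29F4 list and the others. Shares in C29F4 and in ab9110 are therefore not compared like for like.

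Pileup and background were rebuilt from the fold and p-value, and the most frequent background of each list gave its mean coverage. Thinning was computed as an expected number. The calculations were tested on simulated data. Annotation was GENCODE M21, and shares carry exact Clopper-Pearson 95% intervals, which cover counting error only. Python 3.11.15, pandas 2.3.3 and SciPy 1.17.1 were used. Named members were the 10 with the highest fold in each ab9110 ChIP list, up to 10 called in dTAG or DMSO alone, every member with a C29F4 peak, members called in neither list, and a set of well-known genes, with Fau and up to 3 genes of each related list. Some genes that the rule names are not reported here. The members, lists and rules were chosen with earlier results of these data known. The alternatives were other q-value limits, distances and definitions of a start, peaks overlapping input removed, the DMSO list reduced in size or coverage, and members near another coding start left out.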

Additional observations from a re-analysis of the deposited data

How the results depend on the processing

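Each result was recomputed under 13 alternatives, 2 of which bear on 1 result each, and 124 of 145 values stayed within 1.5 times the reported count or 1 SD over members, with 21 that moved. Some of the 124 could not move, such as the dTAG count where only the DMSO list was changed. The 124 is therefore no measure of stability. With q under 0.01 there were 25 members with a DMSO peak (32.5%, against 18.2% of all protein-coding genes), 19 in both lists and 18 in neither. With q under 0.001 there were 13 with a DMSO peak (16.9% against 12.3%) and 39 with a dTAG peak (50.6% against 18.4%). Of the members, 9 were then in both, 4 in DMSO alone and 34 in neither, and the median DMSO fold was 3.50. Summits within 2 kb of a start, or any overlap with 1 kb around it, gave 2 members in C29F4, Rpl13 with Rps26. The DMSO list reduced to as many peaks as the dTAG list gave 17 members with a DMSO peak (22.1% against 13.3%). Of the members, 14 were then in both, 3 in DMSO alone and 48 in dTAG alone. With DMSO peaks kept where the chance of a call at dTAG coverage was at least 0.5, there were 10 with a DMSO peak, 9 in both, 1 in DMSO alone, 53 in dTAG alone and 14 in neither, and the median DMSO fold was 3.50. The cause of these shifts is the construction of each alternative, which removes peaks or widens the window. The restriction to overlapping peaks was added after seeing the data. Under every alternative the share of members stayed above that of all protein-coding genes for DMSO and dTAG peaks. For DMSO peaks it came near that background with q under 0.001 and in the thinned list (13.0% against 10.3%). No intervals were computed for these shares, so a DMSO excess under those alternatives was not established.

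No paired analysis was possible because each condition has 1 list, and no replicate was left out because the C29F4 replicates are merged. Depth limits each list, and the lowest pileup of a called member was 11 fragments in DMSO and 10 after dTAG.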
